A study of Mus musculus with 2 samples.

Results

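The replication-dependent histone genes were taken as all gene symbols of the deposited feature lists that begin with Hist1h, Hist2h, Hist3h or Hist4h and had at least 10 unique molecular identifiers (UMIs, each standing for 1 captured transcript) over both libraries. Of 67 matching symbols among 32285 features, 63 met this minimum: 5 for the linker histone H1, 17 for H2A, 17 for H2B, 12 for H3 and 12 for H4. The members nearest the minimum were Hist2h2aa2 with 12 UMIs and Hist1h4b and Hist2h3c2 with 29 each. The 4 symbols below it were Hist1h2bq, Hist1h1t and Hist1h4m with 1 UMI each and Hist1h2aa with 0. The question was whether the lower level of Hist1h2ap in the library labelled NOD.Cxcl16-/-, already seen in these data, was shared by the other members. The values of Hist1h2ap between the libraries are therefore a description.

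The study profiled single live CD45+CD31- leukocytes sorted from hand-picked pancreatic islets of 12-week-old female mice. NOD mice develop autoimmune diabetes with leukocyte infiltration of the islets. A WT NOD library and a NOD.Cxcl16-/- library, the second from mice lacking the chemokine CXCL16 according to its label, gave 1 sample per group, so no difference between the libraries has a replicate check. The number of mice behind each library is not given in the sources used here. All intervals are exact 95% intervals that cover counting error only, of UMIs or, for shares, of cells.

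Histone proteins package DNA. A pair each of H2A, H2B, H3 and H4 forms the nucleosome core, and H1 binds the linker DNA between cores. The replication-dependent genes are transcribed in S phase, when newly made DNA has to be packaged. Most lie in clusters, lack introns and give mRNAs that end in a conserved stem-loop in place of a poly(A) tail, although some can also be polyadenylated, for instance in differentiated cells. The 3′ libraries used here prime cDNA synthesis on poly(A), so the UMIs count only what such priming captured, and levels of different members were not compared with each other.

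In the GENCODE annotation (build GRCm38), 50 of the 63 members lay on chromosome 13 over 2218.39 kb, 10 on chromosome 3, 2 on chromosome 11 and 1 on chromosome 6. A stem-loop of 16 bases matching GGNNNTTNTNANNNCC was found in the annotated transcript of 43 members, and 25 of these had the same sequence, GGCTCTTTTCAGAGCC. The windows below, read from the annotated transcripts in sense orientation with the stem-loop in capitals, belong to the members on which the results turn. Hist1h2ap, Hist1h2ao, Hist1h2ad and Hist1h4n were lower in the library labelled NOD.Cxcl16-/- in cycling T-like cells, Hist1h2ab was higher, and Hist1h2ae was neither. The stem-loops lie at chr13:21833029-21833044 (minus strand, Hist1h2ap), chr13:21810898-21810913 (plus, Hist1h2ao), chr13:23574895-23574910 (plus, Hist1h2ad), chr13:21831798-21831813 (minus, Hist1h4n), chr13:23751572-23751587 (plus, Hist1h2ab) and chr13:23570668-23570683 (minus, Hist1h2ae).
Hist1h2ap: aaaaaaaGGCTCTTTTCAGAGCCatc
Hist1h2ao: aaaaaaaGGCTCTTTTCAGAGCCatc
Hist1h2ad: aaacaaaGGCTCTTTTCAGAGCCatc
Hist1h4n: aactaaaGGCCCTTTTCAGGGCCatc
Hist1h2ab: aaacaaaGGCTCTTTTCAGAGCCacc
Hist1h2ae: aaacaaaGGCTCTTTTCAGAGCCatt
The 5 H2A genes shown carry the same stem-loop letters, whether their level was lower, higher or neither. In Hist1h4n the stem-loop is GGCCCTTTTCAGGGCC, which 6 members carry. The annotated transcript of Hist1h2ap runs 3 bases past its stem-loop and that of Hist1h2ae 151 bases.

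A poly(A) signal (AATAAA or ATTAAA) followed the stem-loop in the annotated transcript of 16 members, 27 had a stem-loop and no such signal after it, and 20 had no stem-loop match in the annotated transcript. Of these, 15, 24 and 19 had enough UMIs to compare in cycling T-like cells. Their median log2 ratios there, library labelled NOD.Cxcl16-/- over WT NOD and Hist1h2ap included, were -0.14, -0.03 and -0.01, against 0.03 over all genes. The medians do not show the single members: 1, 5 and 1 were lower by 1.5-fold, and 0, 1 and 1 were higher. The 5 include Hist1h2ap, which was chosen for its lower level. Over all 11980 genes compared in these cells, 4.51% were lower and 5.88% higher by 1.5-fold. The median length of the annotated transcripts was 1595, 528 and 408 bases. Whether the short annotations without a match end before a stem-loop was not tested.

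There were 13859 barcodes with 93553185 UMIs in all for WT NOD, against 10554 barcodes with 98681133 UMIs for NOD.Cxcl16-/- as labelled. Over all barcodes, Cxcl16 itself stood at 103 CPM (UMIs per 1000000 UMIs) in WT NOD and 102 CPM in the other library. Its level was thus not lower under the knockout label. A UMI count per gene does not show whether the transcript is intact, and the genotype was not tested. Every direction below is therefore given between libraries and not between genotypes. The members together had 1059 and 999 CPM. Barcodes with at least 500 genes and at most 10% mitochondrial UMIs were assigned cell by cell to T-like, B-like and plasma cell-like classes from markers of these lineages. A cell counted as cycling with at least 2 UMIs of Mki67 and Top2a together, which mark proliferating cells. This gave 755 cycling and 6487 other T-like cells in WT NOD and 532 and 4516 in the other library. There were 66 cycling and 1702 other B-like cells against 95 and 1957, and 12 cycling and 44 other plasma cell-like cells against 24 and 65. Cycling T-like cells had a median of 7 of 8 T-cell markers and 0 of 8 B-cell markers detected in both libraries, which the class rule in part fixes. Cycling plasma cell-like cells, whose rule set no limit on B-cell markers, had a median of 6 of 7 plasma-cell markers in both libraries, and of 5 and 4 of 8 B-cell markers. The median UMI count of cycling T-like cells was 14070 in WT NOD and 16164 in the other library. The libraries shared 45 barcodes, and without them the log2 ratio of Hist1h2ap in cycling T-like cells was -1.88, as with them.

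Hist1h2ap, which encodes a core histone H2A, was lower in the library labelled NOD.Cxcl16-/- in every class and state measured. In cycling T-like cells it had 4420 UMIs (344 CPM) in WT NOD and 935 UMIs (93.6 CPM) in the other library, 3.68-fold lower. On the log2 scale the ratio of CPM, library labelled NOD.Cxcl16-/- over WT NOD, was -1.88 (-1.98 to -1.78). In other T-like cells its CPM was 21.4 and 3.71, a log2 ratio of -2.53 (-2.87 to -2.20). In cycling B-like cells the CPM was 143 and 72.0 (log2 ratio -0.99, -1.33 to -0.66), and in other B-like cells 11.3 and 2.98 (-1.92, -2.56 to -1.31). In cycling plasma cell-like cells, with 75 and 49 UMIs, the log2 ratio was -1.50 (-2.05 to -0.96), and in other plasma cell-like cells, with 13 and 7 UMIs, it was -1.39 (-2.96 to 0.04).

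Hist1h2ap made up 9.95% of the members' UMIs in cycling T-like cells of WT NOD and 2.51% in the other library. After each cell was thinned to 2000 UMIs, 36.1% (32.6 to 39.8) of 717 cycling T-like cells of WT NOD and 12.0% (9.31 to 15.03) of 527 in the other library had a Hist1h2ap UMI. Before thinning the shares were 56.4% and 41.9%. In B-like cells not called cycling, which should make little of it, a UMI was found after thinning in 2.40% and 0.475%. The median cell of that state held 4509 and 4563 UMIs before thinning. For Hist1h2ae, the thinned shares in cycling T-like cells were 27.1% (23.8 to 30.5) and 26.2% (22.5 to 30.2). Intervals of shares cover the sampling of cells within a library, not the spread between libraries.

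**Figure D1:**
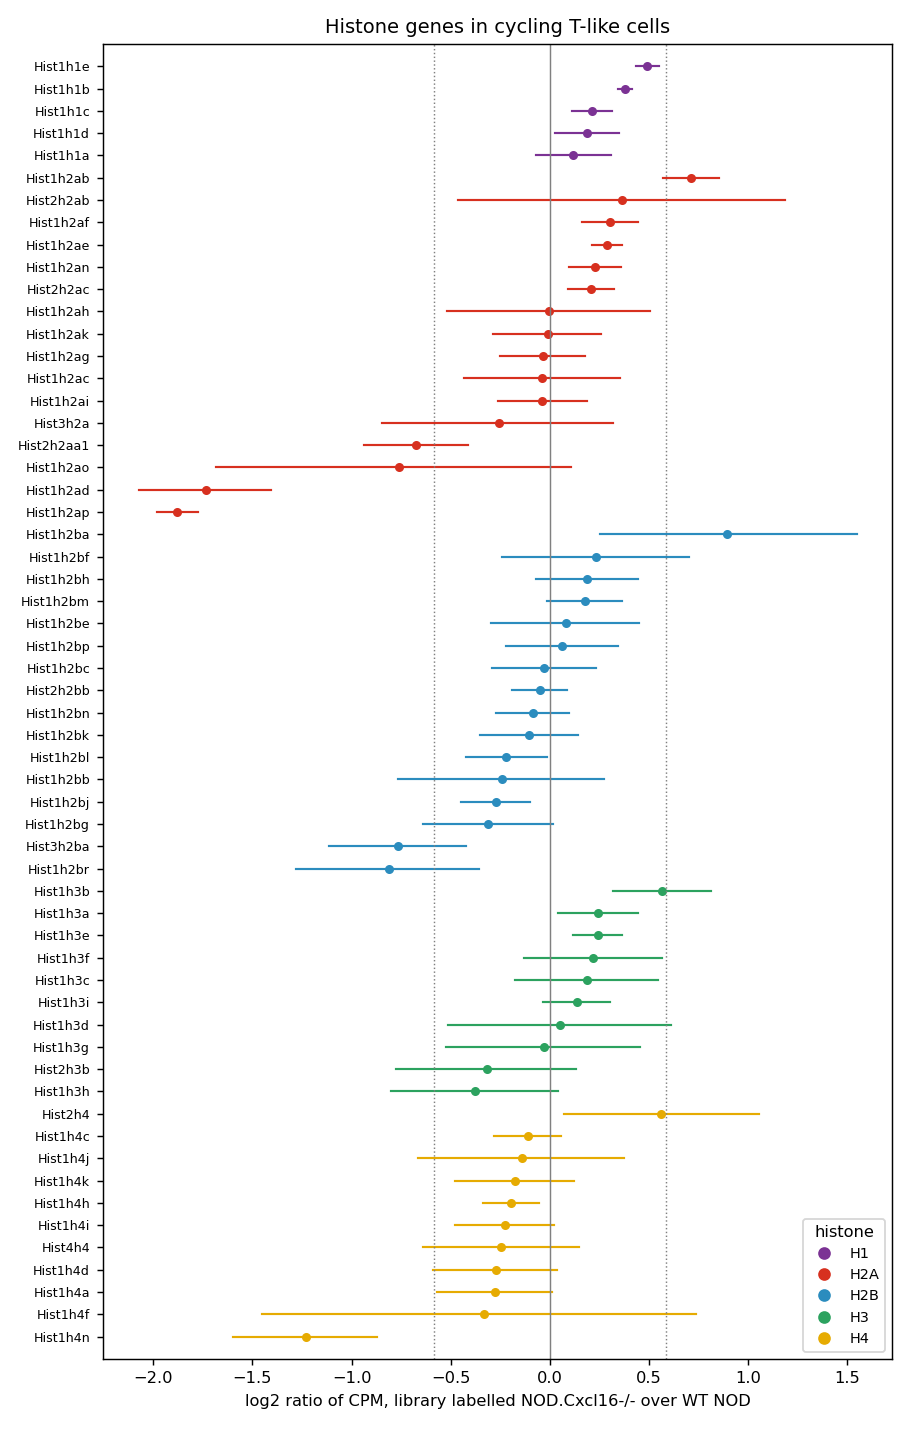
Log2 ratio of CPM in cycling T-like cells, library labelled NOD.Cxcl16-/- over WT NOD, for the 58 members with at least 20 UMIs, grouped by histone. Points are ratios, bars are exact 95% counting intervals, the solid line is no difference and dotted lines mark 1.5-fold. Hist1h2ap (-1.88) and Hist1h2ad (-1.73) lie apart at the left, and most members lie between the dotted lines.

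Most other members did not share this difference. Of the 62 other members, 57 had at least 20 UMIs in cycling T-like cells over both libraries. Of these, 6 (10.5%) were lower by at least 1.5-fold, 2 (3.51%) were higher and 49 were neither. Over all 11980 genes with as many UMIs, 4.51% were lower and 5.88% higher by 1.5-fold. The median log2 ratio was -0.03 over the 57 members and 0.03 over all genes. The counting interval lay wholly below no difference for 8 members, wholly above it for 14, and included it for 35. The same was not counted over all genes, and such intervals narrow as UMIs increase. Summed, the 62 other members were higher, at 3116 CPM in WT NOD and 3639 CPM in the other library (log2 ratio 0.22, 0.20 to 0.24), and the ratio ran from 0.09 to 0.72 over 18 alternative settings. The 5 members with too few UMIs to compare were Hist2h2aa2, Hist2h2be, Hist2h3c1, Hist2h3c2 and Hist1h4b, with at most 9 UMIs in either library.

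In cycling T-like cells the linker histone genes were all somewhat higher in the library labelled NOD.Cxcl16-/-, none by 1.5-fold. Of all 11980 genes compared, 6720 had a log2 ratio above 0. Hist1h1b, which had the most UMIs of any member, stood at 946 CPM in WT NOD and 1229 CPM in the other library (12134 and 12273 UMIs, log2 ratio 0.38, 0.34 to 0.41). Hist1h1e stood at 349 and 491 CPM (0.49, 0.43 to 0.55). Hist1h1c stood at 129 and 150 CPM (0.21, 0.11 to 0.31), and Hist1h1d at 52.1 and 59.3 CPM (0.19, 0.02 to 0.35). For Hist1h1a, at 38.8 and 42.2 CPM, the interval of -0.07 to 0.31 included no difference. Together the H1 genes stood at 1515 and 1971 CPM, a log2 ratio of 0.38 (0.35 to 0.41), which is under 1.5-fold.

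The H2A genes spanned the widest range of ratios. Hist1h2ad was the member nearest to Hist1h2ap in size of difference, with 402 UMIs (31.3 CPM) in WT NOD and 94 UMIs (9.41 CPM) in the other library, 3.33-fold lower (log2 ratio -1.73, -2.07 to -1.41). Hist2h2aa1 had 375 and 183 UMIs (29.2 and 18.3 CPM, -0.67, -0.94 to -0.41). It was not past 1.5-fold in 4 of 18 alternative settings: -0.48 as a mean over cells, -0.49 with Cd8 UMIs only, -0.49 in cells with more S-phase than G2/M UMIs, and 0.41, the opposite direction, without cells over 3 times the class median UMIs. Hist1h2ao had only 37 and 17 UMIs, and its log2 ratio of -0.76 had an interval of -1.68 to 0.10 and was -0.43 with Cd8 UMIs only. In the opposite direction, Hist1h2ab stood at 58.1 and 95.2 CPM (746 and 951 UMIs, 0.71, 0.57 to 0.85).

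The other 11 H2A genes compared lay within 1.5-fold. Hist1h2ae, the H2A member with the most UMIs in these cells over both libraries, stood at 217 and 265 CPM (0.29, 0.21 to 0.37). Hist2h2ac stood at 98.5 and 114 CPM, Hist1h2an at 78.5 and 91.9 CPM and Hist1h2af at 65.8 and 81.3 CPM, with log2 ratios of 0.21, 0.23 and 0.30. Hist1h2ag (-0.03), Hist1h2ai (-0.04), Hist1h2ak (-0.01), Hist1h2ac (-0.04) and Hist1h2ah (-0.004) differed by less than their counting error. All 17 H2A genes summed to 1031 and 874 CPM (-0.24, -0.28 to -0.20), and without Hist1h2ap the direction turned, at 687 and 780 CPM (0.18, 0.14 to 0.23).

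Among the H2B genes, 2 of 16 compared were lower by 1.5-fold and 1 was higher, against 4.51% and 5.88% of all 11980 genes. Hist1h2br had 133 and 59 UMIs (log2 ratio -0.81, -1.28 to -0.36), and Hist3h2ba had 227 and 104 (-0.76, -1.11 to -0.42). Under alternative settings Hist1h2br was not past 1.5-fold in 2 of 17 (-0.42 with Cd4 UMIs only) and Hist3h2ba in 3 of 18 (-0.16 without cells over 3 times the class median UMIs). Hist1h2ba, a histone gene known from male germ cells, had 36 and 52 UMIs (0.89, 0.25 to 1.55). Hist2h2bb, with the most UMIs of the group, stood at 79.2 and 76.4 CPM, and its interval of -0.19 to 0.09 included no difference. Hist1h2bj stood at 54.5 and 45.2 CPM (-0.27, -0.45 to -0.10), Hist1h2bn at 45.8 and 43.2 CPM, Hist1h2bl at 38.8 and 33.3 CPM, and Hist1h2bm at 38.2 and 43.2 CPM. The H2B genes summed to 414 and 389 CPM (-0.09, -0.15 to -0.03).

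None of the 10 H3 genes compared differed by 1.5-fold. Hist1h3e stood at 87.0 and 103 CPM (0.24, 0.12 to 0.37), Hist1h3i at 48.6 and 53.5 CPM (0.14, -0.03 to 0.31) and Hist1h3a at 32.9 and 38.9 CPM (0.24, 0.04 to 0.45). Hist1h3b, at 19.9 and 29.4 CPM, was just inside the fold used (0.57, 0.32 to 0.82). The H4 genes lay mostly on the low side: 10 of 11 had a log2 ratio below 0, against 5260 of all 11980 genes compared. Only Hist1h4n was past 1.5-fold. It had 262 and 87 UMIs (20.4 and 8.71 CPM), 2.34-fold lower (-1.23, -1.60 to -0.87). Hist1h4h stood at 80.0 and 69.8 CPM (-0.20, -0.34 to -0.06) and Hist1h4c at 53.5 and 49.5 CPM (-0.11, -0.28 to 0.06). The sums were 242 and 278 CPM for H3 (0.20, 0.13 to 0.28) and 259 and 221 CPM for H4 (-0.23, -0.31 to -0.15).

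The position of the lower members was then read from the annotation. Hist1h2ap lies at chr13:21833026-21833507 on the minus strand, is protein coding and has a single exon. Over all 11980 genes compared in cycling T-like cells, 4.51% were lower and 5.88% higher by 1.5-fold. Of the 57 members compared besides Hist1h2ap, 6 (10.5%) were lower. Of 5 members starting within 50 kb of the start of Hist1h2ap, 3 were lower by 1.5-fold in these cells: Hist1h2br, 0.236 kb away on the opposite strand, Hist1h4n, 1.311 kb away, and Hist1h2ao, 23.042 kb away. The counting interval of Hist1h2ao included no difference, and all 3 share long stretches of sequence with other genes, as given below. The other 2, Hist1h2bp (0.06) and Hist1h2an (0.23), start 46.046 and 46.289 kb away. Hist1h2ad lies at chr13:23574381-23574952 on the plus strand, also as a single exon, 1740.87 kb from Hist1h2ap. None of the 15 members within 50 kb of it was past 1.5-fold in either direction, their log2 ratios running from -0.33 to 0.49. Hist1h2bf, 0.185 kb away on the opposite strand, stood at 0.23 and Hist1h2ae, 3.161 kb away, at 0.29. The remaining lower members, Hist2h2aa1 and Hist3h2ba, lie on chromosomes 3 and 11.

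**Figure D2:**
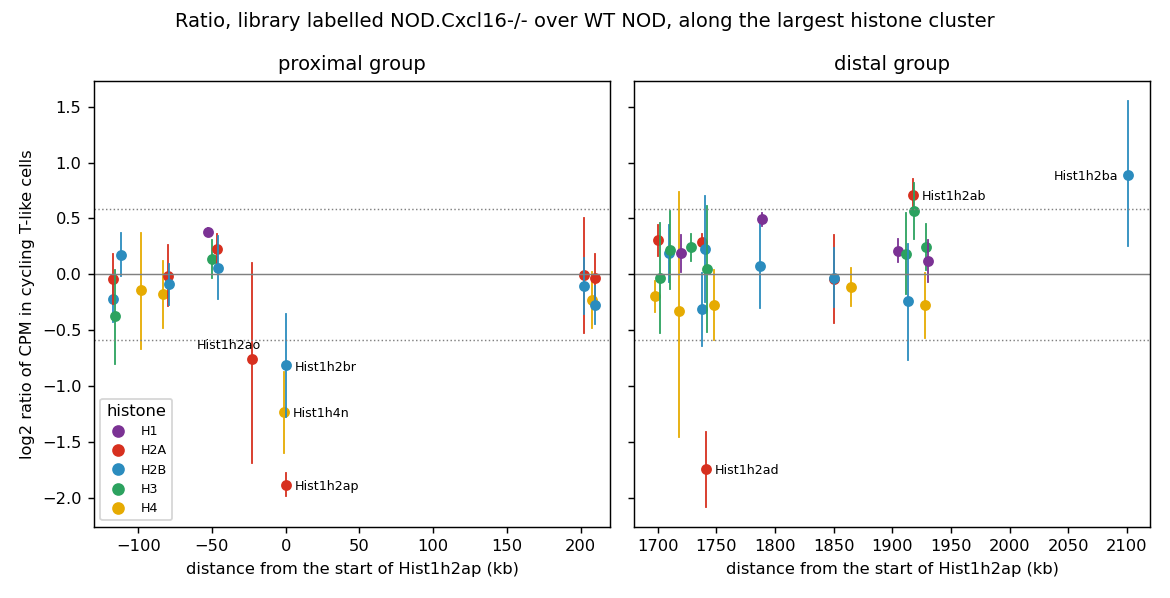
Log2 ratio of CPM in cycling T-like cells (library labelled NOD.Cxcl16-/- over WT NOD) against the distance of each member's start from that of Hist1h2ap, in kb, for the members on chromosome 13, in 2 panels. Bars are exact 95% counting intervals and dotted lines mark 1.5-fold. Hist1h2br, Hist1h4n and Hist1h2ao lie low beside Hist1h2ap, and Hist1h2ad lies low among neighbours near 0.

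Members share long stretches of sequence, which bears on what a count for one gene means. Of the 50-base stretches in the annotated Hist1h2ap transcript, 93.1% also occurred in Hist1h2ao. For Hist1h2ad, 67.1% of its stretches occurred in another gene. The median share was 88.5% over the 7 members lower by 1.5-fold (22.1% to 93.5%), 48.1% over the 2 higher and 45.3% over the 49 others (0% to 93.9%). The 7 include Hist1h2ap, which was chosen for its lower level, and Hist1h2ao, and these share most with each other. How the authors' software assigned reads that match several genes is not given in the sources used here, so the split of counts between Hist1h2ap and Hist1h2ao, and between other near-identical members, is uncertain. Its part in the differences was not tested. Hist1h2br is annotated with 3 exons over chr13:21833743-21837530, and 88.5% of its stretches also occurred in another gene. The gene sharing most was Hist1h2bq, with 88.4% of the stretches of Hist1h2br. For Hist1h4n it was Hist1h4m, with 83.2%. Hist1h2bq and Hist1h4m had 1 UMI each over both libraries.

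The promoters of 3 H2A genes are shown because these genes differed in opposite directions: Hist1h2ap and Hist1h2ad were lower and Hist1h2ab higher. Each sequence runs from 250 bases before to 50 bases after the start in RefSeq (GRCm38.p6), at chr13:21833426-21833725 (minus strand), chr13:23574131-23574430 (plus) and chr13:23750838-23751137 (plus), with the letters CCAAT or their reverse complement ATTGG in capitals. The RefSeq start of Hist1h2ap lies inside the transcript that GENCODE annotates.
Hist1h2ap: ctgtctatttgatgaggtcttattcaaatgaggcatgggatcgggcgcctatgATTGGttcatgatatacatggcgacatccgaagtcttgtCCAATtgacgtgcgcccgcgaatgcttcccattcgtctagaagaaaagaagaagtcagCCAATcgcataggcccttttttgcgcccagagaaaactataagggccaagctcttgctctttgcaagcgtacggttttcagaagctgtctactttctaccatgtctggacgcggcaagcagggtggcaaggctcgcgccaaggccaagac
Hist1h2ad: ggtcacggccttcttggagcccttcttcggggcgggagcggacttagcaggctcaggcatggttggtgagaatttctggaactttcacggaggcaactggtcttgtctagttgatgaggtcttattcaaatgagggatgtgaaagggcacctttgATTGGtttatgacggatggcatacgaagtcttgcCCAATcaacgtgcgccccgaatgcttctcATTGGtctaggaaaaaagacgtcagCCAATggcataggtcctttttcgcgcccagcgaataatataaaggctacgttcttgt
Hist1h2ab: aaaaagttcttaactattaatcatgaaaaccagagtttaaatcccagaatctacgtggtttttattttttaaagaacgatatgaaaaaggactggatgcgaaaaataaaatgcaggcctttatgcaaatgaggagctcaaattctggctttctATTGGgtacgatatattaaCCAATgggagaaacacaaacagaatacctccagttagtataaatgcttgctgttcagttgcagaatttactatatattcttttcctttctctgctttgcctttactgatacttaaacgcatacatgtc
CCAAT, a promoter element common in histone genes, was found on either strand 3 times in the window of Hist1h2ap, 4 times in Hist1h2ad and 2 times in Hist1h2ab. It was present in 50 of the 58 members with a promoter in the table (86.2%) and in 37.4% of all 32851 promoters of the same length. Windows of some neighbouring members on opposite strands overlap, so the same site can count for both. The window of Hist1h2ad overlaps most of that of Hist1h2bf (chr13:23574158-23574457), which was not lower in cycling T-like cells (log2 ratio 0.23). TATAAA, searched on both strands, was present in Hist1h2ad and Hist1h2ab and in 56.9% of members, against 13.6% of all promoters. The octamer ATTTGCAT, known from H2B promoters, was present in Hist1h2ab and in 20.7% of members, against 1.74% of all. A match is a description of the letters in the window only.

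Whether the difference depended on the kind of T cell or on the phase of the cycle was then described within cycling T-like cells. In the 464 and 245 cells with Cd8 UMIs only, Hist1h2ap stood at 388 and 117 CPM (log2 ratio -1.73) and Hist1h2ad at 35.0 and 11.0 CPM (-1.67). In the 138 and 171 cells with Cd4 UMIs only, Hist1h2ap stood at 253 and 71.9 CPM (-1.81) and Hist1h2ad at 24.4 and 7.66 CPM (-1.67). Both genes were thus lower in both kinds of cell. In these subsets the other members summed were higher, with log2 ratios of 0.32 and 0.35.

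Cycling T-like cells with more S-phase than G2/M UMIs numbered 416 and 318, and those with at least as many G2/M UMIs 339 and 214. Hist1h2ap stood at 306 and 90.3 CPM in the first set (-1.76) and at 393 and 98.6 CPM in the second (-2.00). Hist1h2ad gave -1.83 and -1.60, and Hist1h4n -1.22 and -1.25. Hist1h2ab was higher in both sets, at 0.76 and 0.67.

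The libraries' cycling T-like cells had similar levels of cell-cycle genes. A list of 22 S-phase genes, which serve DNA replication, summed to 3259 CPM in WT NOD and 3225 CPM in the other library, and a list of 20 G2/M genes to 3579 and 3424 CPM. All members of both lists lay within 1.5-fold. Pcna, the replication clamp, stood at 354 and 341 CPM, and Mcm6, of the replicative helicase, at 244 and 258 CPM. Dut, which clears dUTP, stood at 612 and 588 CPM. The 17 genes that serve the making, processing or deposition of histones were also within 1.5-fold, with a median log2 ratio of 0.04. Slbp, which binds the stem-loop, stood at 230 and 232 CPM. Nasp, a histone chaperone, stood at 259 and 265 CPM, and Npat, the coactivator of histone gene transcription, at 39.4 and 44.3 CPM. Lsm11, of the small nuclear particle that processes histone mRNA ends, stood at 17.0 and 13.9 CPM (log2 ratio -0.29).

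Of 10 replication-independent histone genes compared, which are expressed outside S phase as well and give polyadenylated mRNAs, 9 lay within 1.5-fold. H3f3b stood at 3759 and 3682 CPM and H2afz at 2739 and 2697 CPM. The exception was the linker variant H1fx, with 46 and 74 UMIs (log2 ratio 1.05, 0.50 to 1.61).

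Markers of other cell types summed to low levels in cycling T-like cells, which the class rule in part fixes. Natural killer (NK) cell markers, with a looser limit in that rule, stood at 300 CPM in WT NOD and 247 CPM in the other library. B-cell markers stood at 14.2 CPM in WT NOD and 10.6 CPM in the other library, plasma-cell markers at 45.4 and 37.5 CPM and myeloid markers at 287 and 358 CPM. Islet hormone markers stood at 39.0 and 135 CPM. The part of such RNA in the differences was not tested.

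In other T-like cells, 10 of the 53 other members compared were lower by 1.5-fold and none was higher, against 7.56% lower and 4.54% higher of all 13872 genes. Hist1h2ad had 48 and 14 UMIs (log2 ratio -1.54, -2.52 to -0.66), Hist2h2aa1 120 and 51 (-1.001, -1.50 to -0.52) and Hist1h1b 952 and 490 (-0.72, -0.88 to -0.57). Hist1h4n, at 8.82 and 6.40 CPM (-0.46), was not past 1.5-fold, and Hist3h2ba did not differ beyond counting error (-0.04, -0.31 to 0.23). Of the 53, 34 had a log2 ratio below 0 and 19 above. Summed, however, the 62 other members were not lower, at 388 CPM in WT NOD and 408 CPM in the other library (0.07, 0.03 to 0.11). The H1 genes together stood at 181 and 212 CPM (0.23, 0.17 to 0.29), with 1672 and 2097 UMIs for Hist1h1e. H2A without Hist1h2ap stood at 57.4 and 51.9 CPM (-0.15, -0.25 to -0.04). The S-phase list was lower in these cells, at 714 and 612 CPM. The G2/M list stood at 399 and 238 CPM, with 15 of its 20 genes lower by 1.5-fold. The part of remaining cycling cells in the differences was not tested.

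In cycling B-like cells the pattern differed in direction. Of 41 other members compared, 23 were higher by 1.5-fold and 1, Hist1h2ad, was lower, against 11.9% higher and 7.31% lower of all 8369 genes. Summed, the 62 others stood at 1445 and 2500 CPM (log2 ratio 0.79, 0.71 to 0.87). Over 14 alternative settings this ratio ran from 0.48 with cycling cells called from 4 UMIs to 2.48 with stricter classes. Hist1h1b stood at 411 and 762 CPM (0.89, 0.74 to 1.04), Hist1h2ae at 85.9 and 186 CPM (1.12, 0.80 to 1.45) and Hist1h2ab at 20.01 and 64.6 CPM (1.69, 1.05 to 2.39). Hist1h2ad had only 14 and 10 UMIs, and its log2 ratio of -1.13 had an interval of -2.46 to 0.15. Hist1h4n was not lower in these cells (14 and 28 UMIs, 0.36, -0.62 to 1.40). The S-phase list was also higher here, at 2161 and 3094 CPM, with 10 of 22 genes past 1.5-fold, and the G2/M list stood at 2509 and 2928 CPM. The median UMI count of these cells was 11913 in WT NOD and 17913 in the other library. The part of phase or depth in the higher histone levels was not tested.

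In B-like cells not called cycling, 1 of 34 other members was lower, Hist1h4n with 55 and 32 UMIs (-1.05, -1.73 to -0.40), and 5 were higher, against 5% and 4.36% of all 11476 genes. The higher members were Hist1h2bf, Hist1h2bh, Hist1h1b, Hist1h1e and Hist1h4a, led in UMIs by Hist1h1e at 70.7 and 121 CPM (0.78, 0.64 to 0.92).

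Plasma cell-like cells were few. In the 12 and 24 cycling ones, 3 of 20 other members compared were lower (Hist1h2bn, Hist1h1a and Hist1h2bg) and 7 higher, against 13.7% and 15.8% of all 4795 genes. The others summed to 1810 and 2052 CPM (0.18, 0.05 to 0.31). This ratio ran from -0.035 with cycling cells called from 4 UMIs to 1.22 with cells thinned to 2000 UMIs, so its direction was not the same in all 13 alternative settings. Hist1h1b, at 534 and 492 CPM, did not differ beyond counting error (-0.12, -0.37 to 0.13). The G2/M list stood at 724 and 2127 CPM in these cells and the S-phase list at 1623 and 1349 CPM. In the 44 and 65 other plasma cell-like cells, 2 of 8 other members were lower, Hist1h1b and Hist1h3e, and none was higher, against 10.3% and 14.6% of all 5192 genes.

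The barcodes that met no class (616 cycling and 2570 other in WT NOD, 882 and 2143 in the other library) were mixed: the cycling ones had a median of 7 and 6 of 8 T-cell markers and 4 and 5 of 10 myeloid markers detected. In their cycling cells, 17 of 57 other members were lower by 1.5-fold and none was higher, against 6.32% lower and 6.54% higher of all 14660 genes. Hist1h2ap stood at 145 and 29.7 CPM (log2 ratio -2.29, -2.40 to -2.18), Hist1h2ad at 12.5 and 2.96 CPM (-2.08, -2.45 to -1.72) and Hist1h4n at 11.8 and 4.70 CPM (-1.33, -1.64 to -1.02). The H1 genes, which were higher in cycling T-like cells, summed to 587 and 585 CPM here, and the core histones were lower: H2A without Hist1h2ap at 279 and 238 CPM (-0.23, -0.28 to -0.18), H2B at 188 and 134 CPM (-0.49, -0.55 to -0.43), H3 at 110 and 95.1 CPM (-0.21, -0.29 to -0.13) and H4 at 133 and 93.0 CPM (-0.52, -0.59 to -0.44). The S-phase list stood at 1606 and 1420 CPM, the G2/M list at 1650 and 1371 CPM and the myeloid markers at 5076 and 7079 CPM, so the makeup of these barcodes differed between the libraries. Its part in the histone values was not tested. In the barcodes of no class that were not called cycling, 11 of 46 other members were lower and 3 higher, against 7.37% and 5.36% of all 14336 genes.

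**Figure D3:**
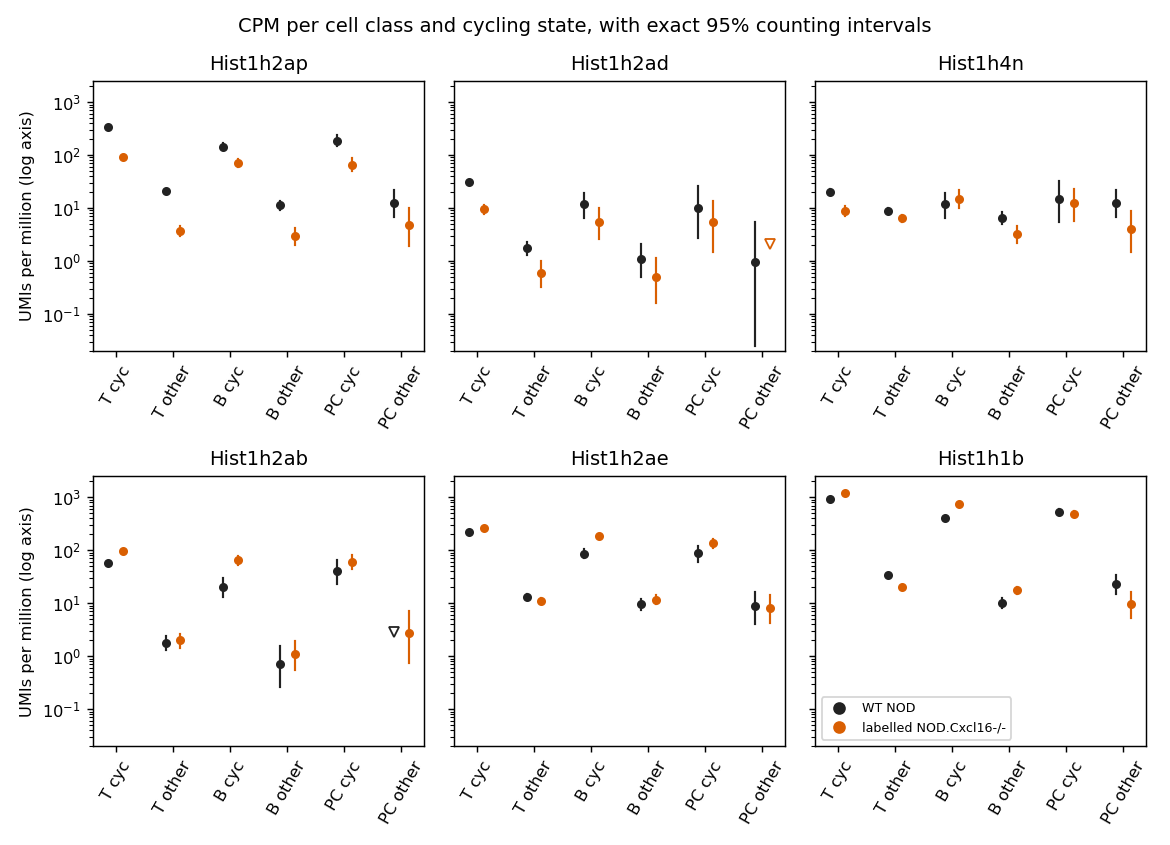
CPM (log axis) of 6 members in cycling (cyc) and other T-like (T), B-like (B) and plasma cell-like (PC) cells of the WT NOD library (black) and the library labelled NOD.Cxcl16-/- (orange). Bars are exact 95% counting intervals of the sums over cells, and an open triangle marks the level that 3 UMIs would give where none was counted. Hist1h2ap is lower in orange in all 6 positions, whereas Hist1h2ae and Hist1h1b are not.

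Most members were far higher in cycling than in other cells of the same class, in both libraries. The Mki67 and Top2a rule used neither histone genes nor this ratio. In T-like cells 53 of 60 members compared were at least 2-fold higher in cycling cells in both libraries, against 5.07% of all 14494 genes. The median fold was 8.85 in WT NOD and 9.50 in the other library, against 0.906 and 0.919 over all genes. Hist1h2ap was 16.1-fold higher in WT NOD and 25.2-fold higher in the other library, and Hist1h2ae 16.2-fold and 23.7-fold. Hist1h2ad was 18.2-fold and 15.95-fold higher. Hist1h1b was 27.7-fold and 59.5-fold higher, and Hist1h3b 39.6-fold and 58.2-fold.

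The 7 members that did not meet this rule in T-like cells were Hist1h1c, Hist3h2a, Hist2h2be, Hist3h2ba, Hist4h4, Hist2h4 and Hist1h4n. Hist1h1c was 1.65-fold and 1.59-fold higher in cycling cells, and Hist4h4 1.34-fold and 1.19-fold. Hist3h2a was instead 1.69-fold and 1.76-fold higher in the other cells. Hist1h4n was 2.32-fold higher in cycling cells in WT NOD and 1.36-fold in the library labelled NOD.Cxcl16-/-. In their annotated transcripts, Hist1h1c, Hist3h2a, Hist3h2ba, Hist4h4 and Hist2h4 carry a poly(A) signal past the stem-loop, and Hist1h4n does not. Hist2h2be has no stem-loop match.

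In B-like cells 40 of 48 members met the rule, against 7.99% of all 11823 genes, with median folds of 4.88 and 8.32. Hist1h1c did not differ between states there (0.991-fold and 0.971-fold), and Hist3h2a was 2-fold or more lower in cycling cells in both libraries. In plasma cell-like cells 21 of 29 met it, against 26.7% of all 7078 genes, with median folds of 5.59 and 8.71. Hist1h2ap was 12.7-fold and 24.2-fold higher in cycling B-like cells and 14.9-fold and 13.9-fold higher in cycling plasma cell-like cells.

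**Figure D4:**
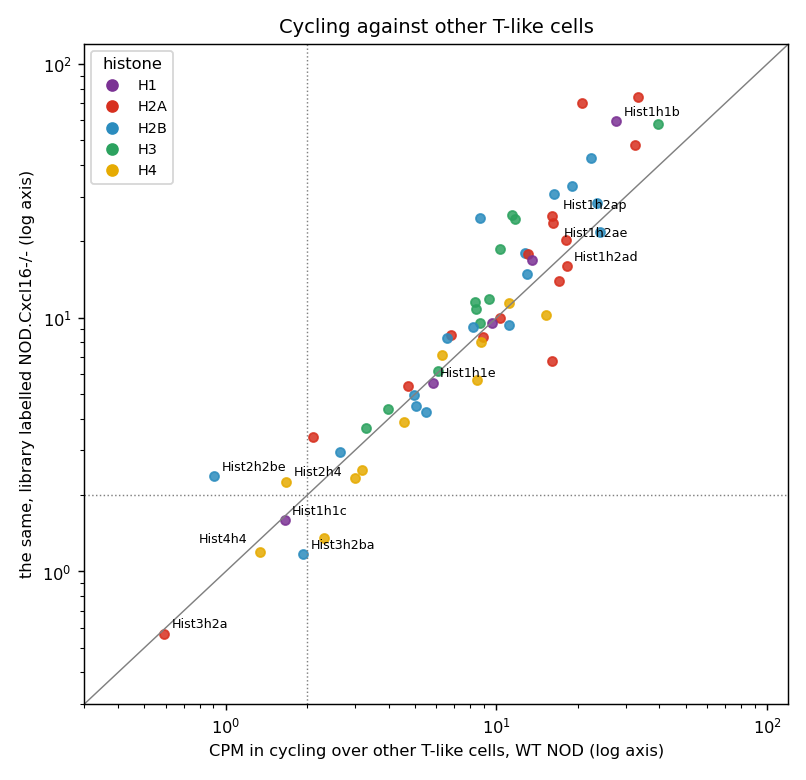
Fold of CPM in cycling over other T-like cells in WT NOD (x axis) and in the library labelled NOD.Cxcl16-/- (y axis), both log axes, for the 60 members compared, coloured by histone. The line marks equal folds and dotted lines mark 2-fold. Most members lie above 2-fold on both axes, and Hist1h1c, Hist3h2a, Hist4h4 and Hist3h2ba lie below it on both.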

How the data were processed

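The authors deposited, for each library, a matrix of UMI counts per gene and barcode with its feature and barcode lists. Per the labels' protocols, libraries were made with 10x Genomics 3′ v3.1 chemistry, and per the submitters' processing notes with Cell Ranger 7.0.1 and build mm10. Strand and intron settings are not given in the sources used here.

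Counts were summed over cells of a class, state and library and given as CPM of all UMIs of those cells. Barcodes needed at least 500 genes and at most 10% mitochondrial UMIs, which kept 12252 and 10214. Gates on detected markers, with thresholds set after the data were seen, assigned cells singly. T-like cells had at least 3 of 8 T-cell markers, B-like cells at least 4 of 8 B-cell markers and plasma cell-like cells at least 5 of 7 plasma-cell markers. T-like cells had at most 2 B-cell, plasma-cell or myeloid markers each and at most 4 of 8 NK markers, and B-like cells at most 2 T-cell, 2 myeloid and 3 plasma-cell markers. Plasma cell-like cells had at most 2 T-cell and 2 myeloid markers, with no limit on B-cell markers. No doublet caller was run. The gates left out 754 and 681 barcodes that met the T-cell minimum and that of B or plasma cells, and 3186 and 3025 barcodes in all were in no class.

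Ratios carry exact conditional intervals, levels exact Poisson intervals and shares exact Clopper-Pearson intervals, at 95%. No pseudocount was added, but where a side of a ratio or fold had no UMI, 3 UMIs were put in its place. This was done for the ratios over all genes as well. A gene was compared with at least 20 UMIs over both libraries. With 1 library per group no test was possible, and a 1.5-fold difference (0.58 on the log2 scale) is a rule of size. All members were eligible to be named, the 20 with most UMIs in cycling T-like cells in full, with up to 4 genes per list. Members, lists and comparisons were chosen with earlier results of these data known. The script was tested on simulated data. Positions and transcripts are from GENCODE (GRCm38), with all 63 members matched. Promoters are from RefSeq, with 58 of 63 matched. Analyses used Python 3.11.15, numpy 2.4.6, scipy 1.17.1, pandas 2.3.3 and matplotlib 3.10.9. The 12 alternatives set out at the start changed the barcode filter, the cycling rule, depth, summing, doublets, gates, scaling, pseudocount and minimum count. Another 6, chosen after the data were seen, changed doublets, shared barcodes, T-cell kind and phase.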

Additional observations from a re-analysis of the deposited data

Results flagged for a closer look

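Hist1h2bj, a core histone H2B gene, differed between the libraries in opposite directions in the cycling cells of different classes. In cycling T-like cells it was lower in the library labelled NOD.Cxcl16-/- (700 UMIs in WT NOD and 451 in the other library, log2 ratio -0.27, interval -0.45 to -0.10), which is within 1.5-fold. In cycling B-like cells it was higher (15 and 48 UMIs, 1.03, 0.17 to 1.98). It was not alone there: of 41 members compared besides Hist1h2ap, 23 were higher by 1.5-fold, against 11.9% of all genes. Hist1h2bj was singled out because the intervals lay on opposite sides of no difference. The difference between the classes was not tested, since each group has 1 library.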

How the results depend on the processing

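No paired analysis was possible because each group has 1 library. Hist1h2ap in cycling T-like cells kept its direction under all 18 alternatives (log2 ratio -2.18 to -1.26), and moved beyond its counting error to -2.18 with cells thinned to 2000 UMIs, -2.05 with stricter classes, -1.73 with Cd8 UMIs only, -1.76 and -2.00 by phase (more S, and at least as much G2/M), and -1.26 without cells over 3 times the class median UMIs, a setting that removes many cycling cells. Hist1h2ad (-1.84 to -1.42) and Hist1h4n (-1.60 to -0.68) stayed past 1.5-fold in all 18. Under that last setting Hist2h2aa1 turned to 0.41; the cause was not tested. The count of other members lower by 1.5-fold ran from 4 to 7, with 3 to 6 of the 6 shared, and that of members higher in cycling T-like cells from 43 to 53. The sum of the other members in cycling T-like cells stayed above 0: 0.16 with cycling from 1 UMI or by S-phase genes, 0.26 from 4 UMIs, 0.19 thinned, 0.72 without cells over 3 times the class median, 0.17 without those over 3 times the median of class and state, 0.092 with stricter classes, 0.20 without immunoglobulin, receptor, mitochondrial and ribosomal genes, 0.19 scaled by the median ratio, 0.32 and 0.35 with Cd8 or Cd4 UMIs only, and 0.28 and 0.17 by phase. In cycling B-like cells it was 0.48 from 4 UMIs, 0.63 by S-phase genes, 1.12 thinned, 1.28 as a mean over cells, 2.48 with stricter classes and 0.99 without cells over 3 times the median of class and state. In cycling plasma cell-like cells it was -0.035 from 4 UMIs, 1.22 thinned, 0.65 as a mean over cells and 1.17 without cells over 3 times either median, and stricter classes left no value there. Of 994 values of single members, 873 moved by less than their counting error and 120 by more, and 1 past 1.5-fold reversed. Counting members within 1.5-fold as well, 98 values of 39 members changed sign. Depth limits members with few UMIs, such as Hist1h2ao, and all plasma cell-like values.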
